A study of Mus musculus with 28 samples.

Results

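The Hippo pathway and TEAD factor genes described here are Yap1, Wwtr1, Tead1, Tead2, Tead3, Tead4, Lats1, Lats2, Amotl2 and Ajuba, 10 of 21938 protein-coding genes in GENCODE M21. They were chosen by name, and every accessible region that overlapped one of them or the 20 kb to each side was taken. This gave 57 of 46189 regions in the control list and 79 of 64883 in the db/db list, or 81 places in all, of which 55 were shared, 2 were found in the control list only and 24 in the db/db list only.

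ATAC-seq, in which a transposase marks open chromatin, was performed on purified Müller cells, the main glial cells of the retina, to compare diabetic with control mice. Each genotype contributed 1 list of peaks, the one given for its replicate 1. There is thus no replicate error, no test between genotypes was possible, and every difference below is a difference between these 2 lists. Intervals on shares are 95% Wilson intervals and cover counting error only.

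The db/db group is homozygous for a mutation of Lepr, the leptin receptor gene, and becomes obese and diabetic. The control group is labelled WT, and the methods of the study count both wild type and db/+ mice as controls. Both groups were 6 months old and of the BKS background, bred from animals of 2 suppliers, and mice of both sexes were used. The cells were the CD29+ fraction from magnetic sorting after CD11b+ microglia and CD31+ endothelial cells had been removed, a fraction that can also hold some astrocytes. According to the study, some carry-over of photoreceptors into it is unavoidable. All 10 marker genes of Müller cells had an accessible promoter in both lists, where 58.1% of protein-coding genes did. Of their 46 control regions 0 were found in the control list only, against 4.16% of the whole list. Rod photoreceptor markers differed between the 2 lists, and whether by genotype or by carry-over in sorting was not tested. Of 10 rod genes, 9 had an accessible promoter in the control list and 6 in the db/db list, and 16 of their 49 control regions (32.7%) had no db/db counterpart. Of 4 astrocyte markers 3 had an accessible promoter in each list, of 7 microglial markers 1, and of 7 vascular markers 2, beside the 58.1% of coding genes. Of 6 cone markers 2 had one in both lists, of 7 bipolar markers 4, and of 7 amacrine and ganglion cell markers 1.

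In the Hippo pathway a chain of kinases ends in LATS1 and LATS2, which phosphorylate the coactivators YAP (Yap1) and TAZ (Wwtr1) and so keep them in the cytoplasm. Unphosphorylated YAP and TAZ enter the nucleus and bind the TEAD factors, which hold the DNA at sites with the letters GGAATG. Junction proteins such as AMOTL2 bind YAP, and LIM proteins such as AJUBA bind the LATS kinases. In the retina Yap1 is active in Müller cells, where the pathway is known for its part in the response to injury and in holding back proliferation.

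The letters GGAATG, or their reverse complement CATTCC, stood in the promoter sequences of most of these genes, and stretches that hold them are shown first because the promoter results below refer to them. Sequences are from RefSeq (GRCm38.p6), each promoter running from 250 bases before to 50 bases after an annotated start. The table matched 8 of the 10 genes by symbol, with 12 promoters. Tead1 and Tead4 were not among them. Each line reads 5′ to 3′ in the direction of the gene, with the TEAD letters in capitals. Stretches are 100 bases long, or 30 where they touch an annotated exon.
Yap1, chr9:8004685-8004784, minus strand: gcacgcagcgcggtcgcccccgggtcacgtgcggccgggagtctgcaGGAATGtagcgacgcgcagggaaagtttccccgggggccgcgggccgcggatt
Wwtr1, chr3:57575994-57576093, minus strand: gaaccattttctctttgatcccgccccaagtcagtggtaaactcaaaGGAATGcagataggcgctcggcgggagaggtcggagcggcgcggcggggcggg
Tead3, chr17:28350935-28351034, minus strand: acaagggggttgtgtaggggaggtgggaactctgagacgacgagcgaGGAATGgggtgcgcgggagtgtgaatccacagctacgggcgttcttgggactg
Tead3, chr17:28350706-28350735, minus strand: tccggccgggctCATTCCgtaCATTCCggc
Lats2, chr14:57746102-57746131, minus strand: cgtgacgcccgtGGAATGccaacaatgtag
Amotl2, chr9:102717727-102717756, plus strand: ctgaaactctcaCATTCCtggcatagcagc
Ajuba, chr14:54577784-54577883, minus strand: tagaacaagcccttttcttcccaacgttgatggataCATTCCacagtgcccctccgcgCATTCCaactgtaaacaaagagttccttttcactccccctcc

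The TEAD letters were present in 8 of the 12 promoters, from 6 of the 8 genes, and absent from the windows of Lats1 and Tead2. Over all 32851 promoters of the table the share was 14.7%, and over genes it was 16.6%. The promoters of the pathway genes were rich in G and C, with a median of 68.2% against 52.7% over all promoters, and in promoters with at least 60% the share with the TEAD letters was 9.40%. The 12 promoters are not 12 independent sequences, since the 3 of Tead3 and the 2 of Wwtr1 overlap, and the 2 of Wwtr1 hold the same match. In Yap1 the letters lay 141 to 136 bases before the start, in Wwtr1 170 to 165 bases before one start and 136 to 131 before the other, and in Amotl2 65 to 60 bases before it. Ajuba held them at 186 to 181 and at 164 to 159 bases before its start. Another match in the middle Tead3 promoter, 2 to 7 bases after its start, lies outside the stretches shown. All of the stretches shown lay inside an accessible region of both lists. A match is a run of letters and not a measured binding site.

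Other strings were searched on both strands of the same promoters. The SP/KLF string GGGCGG was in 10 of 12, against 35.7% of all promoters. The glucocorticoid receptor half-site TGTTCT was in 1, that of Ajuba (19.0% of all), and the NFI half-site TTGGCA in 1, that of Lats2 (14.1% of all), where it overlapped the TEAD letters. The box CCAAT was in 1, that of Ajuba (37.4% of all), and the AP-1 string TGANTCA in 0 (7.81% of all). The TEAD letters were thus shared by more of the genes than any other string searched except GGGCGG. The shares over all promoters of these other strings were not matched for G and C content, in which the pathway promoters are rich.

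Each region was ranked by its signal, the fold enrichment given by the authors, within its own list. A signal percentile of 0 is the weakest and 100 the strongest region of that list. The median signal was 10.6 in the control list and 8.60 in the db/db list. The db/db list is longer, mostly by weak regions, and the percentile of a shared region was higher in that list by a median of 8.52 points (SD 11.2) over all 43519 regions with a single partner. Regions with a single partner were therefore also ranked among those 43519 alone, where the median change over all of them was 0.09 points (SD 10.6). That value is called the paired rank below. A change in it of at least 10 points, close to that SD, is counted as a rise or a fall in rank. A higher percentile in the db/db list is not by itself a rise in rank.

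All 10 genes had an accessible promoter in both lists, where 58.1% of protein-coding genes did. Regions were called promoters where the summit was at most 1 kb from a start of the gene in the annotation. By signal these promoters were accessible at modest strength. The strongest promoter of every gene ranked below the median promoter of coding genes, which stood at percentile 78.2 in the control list and 80.7 in the db/db list. The marker genes of Müller cells did so as well, with promoters at percentiles 4.54 to 53.3 in the control list. The promoter regions of the Hippo and TEAD genes were wide, with a median of 1391 bp in the control list against 917 bp over all promoter regions. Strength here means signal alone. By −log10 p Tead3 stood above Tead4 and Yap1 above Tead2 in both lists, the reverse of their order by signal.

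**Figure D1:**
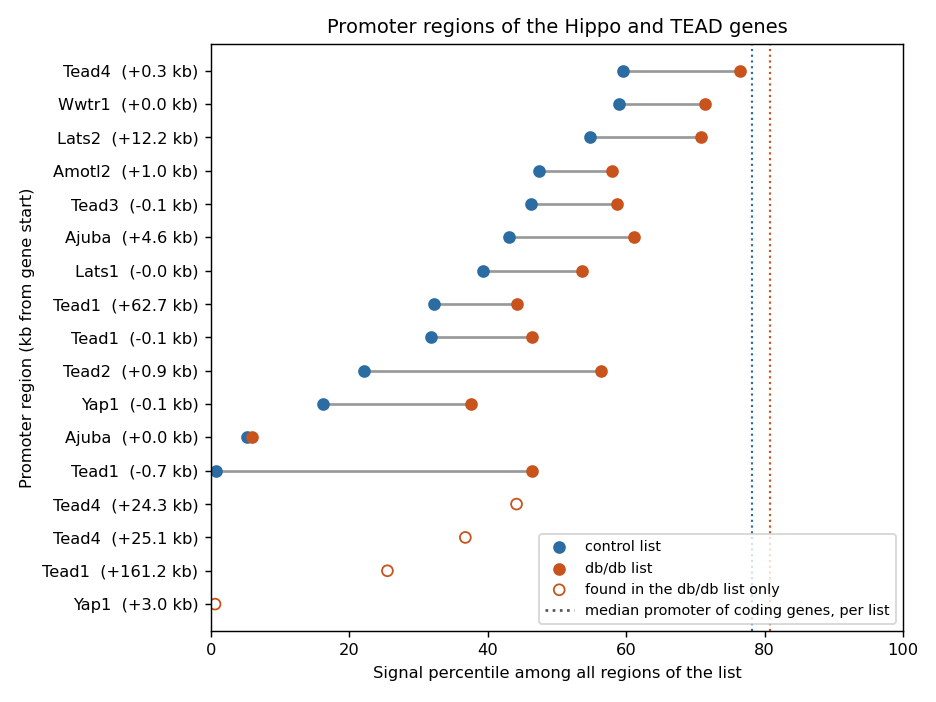
Signal percentile of the 17 promoter regions of the Hippo and TEAD genes in the control list (blue) and the db/db list (orange), with open circles for those without a control counterpart and dotted lines for the median promoter of coding genes in each list. All filled points lie left of the dotted line of their own list, and both Tead1 regions at the gene start are joined to the same db/db region at percentile 46.3.

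Yap1, which encodes the coactivator YAP, had the weakest main promoter of the 10 genes by signal. The region lay at chr9:8003310-8004995 in the control list, with its summit 131 bp before the gene start. Its percentile was 16.1 in the control list and 37.6 in the db/db list. Among the strongest promoters of coding genes these values stood at percentiles 4.79 and 10.6. In paired rank the change was 6.23 points, within the spread of all regions. A second promoter region at an internal start, 2.99 kb into the gene, was found in the db/db list only, at percentile 0.566.

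Wwtr1, which encodes the coactivator TAZ, had a stronger promoter. It lay at chr3:57574890-57576805 with its summit 13 bp after the gene start, at percentile 59.0 in the control list and 71.5 in the db/db list. The paired rank differed by 1.70 points.

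The TEAD genes encode the DNA-binding partners of both coactivators. By signal Tead4 had the strongest of their promoters, at chr6:128300112-128301148. Its percentiles were 59.6 and 76.5 in the control and db/db lists, with a paired rank change of 7.99 points. Tead3 followed at chr17:28349982-28351549 with 46.2 and 58.7 and a change of -1.48 points. Tead2, at chr7:45215598-45217111, stood at 22.1 in the control list and 56.3 in the db/db list. Its paired rank was higher by 19.5 points in the db/db list, and it was the only promoter region of the 11 with a single partner that passed 10 points.

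At the start of Tead1 the db/db list had 1 region, chr7:112678440-112680287, at percentile 46.3. It overlapped 2 control regions, one of 31.7 with its summit 93 bp before the start, and one of 0.749 with its summit 734 bp before it. Neither has a single partner, so no rank change is given for them. An internal Tead1 promoter 62.7 kb into the gene was shared at 32.2 and 44.2, with a paired rank change of -3.07 points. Another at 161 kb was found in the db/db list only, at 25.5. Accessible starts of Tead1 thus lay at 3 places along the gene, the last of them in the db/db list only.

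Tead4 also had internal promoter regions, and these were found in the db/db list only. They lay next to each other at chr6:128276143-128277010 and chr6:128275464-128276017, with summits 24.3 and 25.1 kb into the gene and 958 and 180 bp before an internal start. Their percentiles in the db/db list were 44.2 and 36.8, which placed them among the 5 strongest db/db-only regions of the 10 genes.

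Lats1 and Lats2 encode the kinases that phosphorylate YAP and TAZ. The Lats1 promoter, chr10:7680544-7682013, ranked at 39.4 in the control list and 53.6 in the db/db list, a paired rank change of -0.637 points, although its strongest summit differed by 406 bp between the lists. The accessible Lats2 promoter lay 12.2 kb inside the annotated gene, at chr14:57745338-57746668, the start that holds the TEAD letters shown above. It ranked at 54.8 and 70.8, with a paired rank change of 5.09 points. The other Lats2 promoter in the RefSeq table lay in no accessible region of either list.

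Amotl2 encodes a junction-associated scaffold that binds YAP, and its promoter at chr9:102717235-102718625 ranked at 47.3 in the control list and 58.0 in the db/db list. The paired rank differed by -3.52 points. Ajuba, a LIM-domain adaptor that binds the LATS kinases, had 2 shared promoter regions. The one at the gene start, chr14:54577305-54578137, with both CATTCC matches, was weak, at 5.15 and 5.94. The one at an internal start, chr14:54572684-54573361, was stronger, at 43.0 and 61.1.

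Across the 11 promoter regions with a single partner the percentile was higher in the db/db list by a median of 14.2 points, against 4.49 over all promoter regions. Ranked among shared regions alone the difference was smaller. In paired rank the median change was 1.70 points (SD 6.78), with 6 regions higher and 5 lower, against -0.76 over all 14727 promoter regions. A rise of at least 10 points was seen in 1 of 11 promoters (Tead2) against 7.43% of all promoter regions, and a fall in 0 of 11 against 12.7%. Each of the 13 control promoter regions had a db/db counterpart (0% without one, up to 22.8%), where 1.98% of all control promoter regions had none. Of 16 db/db promoter regions, 4 were found in that list only, or 25.0% (10.2% to 49.5%), against 14.2% of all, and the interval includes the share of the whole list.

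Distal regions, more than 1 kb from any annotated start, made up 35 of the 57 control and 53 of the 79 db/db regions. Of the 53 distal places in all, 45 were intronic, 6 intergenic and 2 exonic. In the control list 1 of 35 had no db/db counterpart, or 2.86% (0.506% to 14.5%), against 5.25% of all distal regions. In the db/db list 18 of 53 had no control counterpart, or 34.0% (22.7% to 47.4%), against 37.8%. Both shares were near those of the whole lists.

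**Figure D2:**
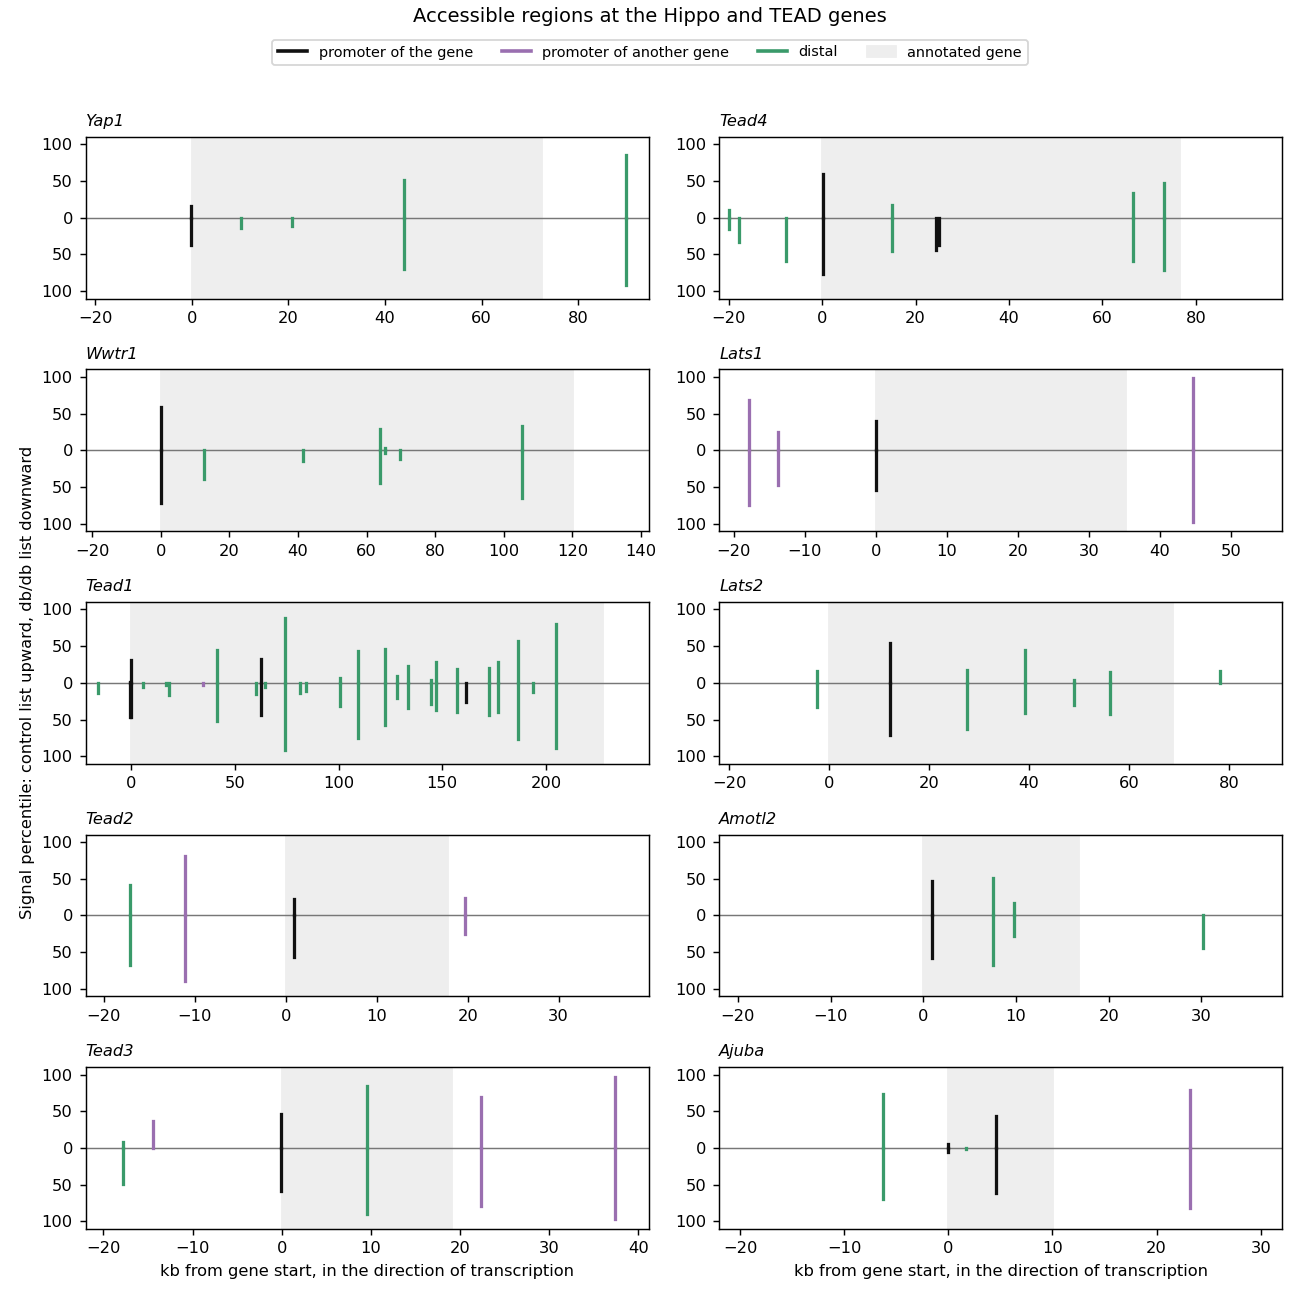
Accessible regions at each of the 10 genes by distance in kb from the gene start in the direction of transcription, with the signal percentile in the control list drawn upward and in the db/db list downward, and the annotated gene shaded. Tead1 carried 17 control and 29 db/db regions along its 227 kb, and its strongest region in either list stood 74.3 kb into the gene.

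Tead1 held the largest number of regions, 17 in the control list and 29 in the db/db list, or 6.36 and 10.8 per 100 kb of gene and flanks. The medians over coding genes were 2.81 and 3.84. In the control list Tead3 (10.1), Ajuba (7.99), Tead2 (6.91) and Lats2 (6.44) were denser than Tead1. Yap1 (2.66) and Wwtr1 (2.50) lay below the median there. The strongest region of Tead1 was intronic, chr7:112753052-112753854, 74.3 kb into the gene, at percentile 88.8 in the control list and 91.2 in the db/db list. Another intronic region 205 kb into the gene, toward the 3′ end, stood at 80.7 and 89.2. By signal both regions thus ranked far above the promoter of the same gene in each list. By −log10 p only the one at 74.3 kb stood above the promoter at the gene start.

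The other shared distal regions of Tead1 ran through its introns. At 41.2 kb into the gene the percentiles were 44.6 in the control and 52.3 in the db/db list, at 109 kb 43.2 and 75.3, at 123 kb 46.4 and 56.8, and at 187 kb 56.6 and 76.0. These 4 were of middle strength. At 133 kb the percentiles were 23.5 and 34.8, at 157 kb 18.8 and 40.0, at 172 kb 20 and 44.4, and at 177 kb 27.7 and 39.0. At 100.5 kb they were 7.08 and 31.7, at 128 kb 9.27 and 20.3, and at 145 kb 3.86 and 28.5. The last of the 14 shared ones, at 147 kb, stood at 29.0 in the control list and was split in the db/db list, where its stronger part stood at 36.8. In paired rank 8 of the 13 distal Tead1 regions with a single partner were higher in the db/db list. A rise of at least 10 points was seen in 3 of the 13, against 16.4% of all distal regions. These lay at 109 kb (23.2 points), 145 kb (10.6) and 187 kb (10.4). Those at 41.2, 123, 133 and 177 kb were lower, with changes of -7.37, -3.94, -3.05 and -3.66 points. The strongest region, at 74.3 kb, was also lower (-1.12 points).

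The 9 distal Tead1 regions without a control counterpart were weak. One lay 15.9 kb before the gene, in an intron of 2310014F06Rik, at percentile 14.0. Those at 5.79, 16.8 and 18.4 kb into the gene stood at 5.05, 3.39 and 16.6. Those at 60.1, 64.6, 81.6, 84.3 and 194 kb stood at 14.9, 5.72, 13.1, 11.3 and 12.9. None of them passed percentile 20, and the same held for both db/db-only promoter regions of other transcripts in the window, 2310014F06Rik at 0.341 and Gm44462 at 3.49.

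Among the coactivator genes, the strongest distal region of Yap1 was intergenic. It lay at chr9:7914130-7914952, 90.0 kb from the gene start and so past the 3′ end of the 72.6 kb gene, with percentiles of 85.7 in the control and 90.9 in the db/db list. The only other shared distal region of Yap1 was intronic, 44.0 kb into the gene, at 50.8 and 69.6. By signal both stood above the Yap1 promoter in each list, and by −log10 p only the intergenic one did. The db/db list had intronic regions at 10.2 and 20.8 kb in addition, at percentiles 14.1 and 11.0.

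In Wwtr1 the distal region with the highest mean percentile was intronic, chr3:57470248-57471549, 105 kb into the gene, at 32.5 in the control list and 65.3 in the db/db list. Its paired rank was higher by 20.4 points in the db/db list. Intronic regions at 64.0 and 65.4 kb were shared, the first at 29.1 and 44.4 and the second at 2.66 and 3.69. Those at 12.6, 41.3 and 69.7 kb were found in the db/db list only, at 38.6, 15.1 and 11.6. The first of these, chr3:57563044-57563467, was the fourth strongest db/db-only region of the 10 genes.

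The strongest distal region of Tead3 was intronic, chr17:28340731-28341627, 9.61 kb into the gene, at 84.5 in the control and 89.2 in the db/db list. An intergenic region 17.8 kb before Tead3, chr17:28368472-28368769, stood at 7.88 in the control list and 48.7 in the db/db list, with a paired rank change of 24.2 points. Tead2 had 1 distal region, chr7:45198474-45198769, in an intron of Ccdc155 17.1 kb before the Tead2 start, at 41.7 and 68.0, with a paired rank change of 14.8 points. At each of these genes the number of distal regions was the same in both lists.

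Tead4 had 4 shared distal regions. In paired rank 3 of the 4 were higher by at least 10 points in the db/db list, against 16.4% of all distal regions. The strongest had its summit in an exon 73.1 kb into the gene, chr6:128227340-128228006, at 47.3 and 70.5 (12.4 points). Intronic regions at 14.9 kb and 66.5 kb stood at 16.8 and 45.6 (13.0 points) and at 33.5 and 58.2 (10.6 points). The fourth, 19.9 kb before the gene, stood at 10.4 and 14.7 (-3.35 points). In addition the db/db list had intergenic regions 17.8 and 7.67 kb before the gene, at 32.6 and 58.2. The latter, chr6:128308307-128308672, was the strongest db/db-only region of the 10 genes. With the internal promoters above, 4 of the 9 db/db regions of Tead4 had no control counterpart, against 31.3% of the whole list. With 9 regions no difference from that share can be told.

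Lats2 and Lats1 differed in their distal regions. No distal region was found within 20 kb of Lats1 in either list, and its other 3 regions were promoters of Pcmt1, Nup43 and Katna1. Lats2 had 5 shared distal regions, of which 4 were intronic. The region 27.7 kb into Lats2, chr14:57729759-57730991, stood at 17.0 in the control list and 62.2 in the db/db list, and its paired rank was higher by 31.4 points, more than that of any other region of the 10 genes. The region 39.2 kb in, chr14:57719080-57719678, stood at 44.1 and 41.1, and its paired rank was lower by 18.1 points (a change of -18.1). Adjacent regions of the same gene thus lay on opposite sides of the spread of all regions.

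The other Lats2 regions were weaker. Those at 48.9 and 56.3 kb stood at 3.62 and 30.7 and at 15.2 and 42.0, with paired rank changes of 12.2 and 10.9 points. An intergenic region 2.52 kb before the gene stood at 16.8 and 33.3. A region 78.3 kb from the start, chr14:57679995-57680284, in an intron of Gm49361, was found in the control list only, at percentile 16.8. The introns of Lats2 overlap those of Gm49361, so that the intronic regions cannot be given to one of them by position.

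The strongest distal region of Amotl2 was intronic, chr9:102723650-102724603, 7.47 kb into the gene, at 51.2 in the control and 67.6 in the db/db list. A weaker one at 9.84 kb stood at 16.4 and 27.5. A region 30.2 kb from the start, past the end of the gene in an intron of Gm5627, chr9:102746483-102747201, was found in the db/db list only, at 44.6. Ajuba had its strongest distal region 6.32 kb before the gene, chr14:54583735-54584152, in an exon of 4931414P19Rik, at 73.2 in the control and 69.8 in the db/db list. Its paired rank changed by -15.3 points. An intronic Ajuba region 1.68 kb into the gene was found in the db/db list only, at 1.18.

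Promoters of neighbouring genes accounted for 9 control and 10 db/db regions in the windows. Of the 8 that were shared, 6 stood above percentile 33.5 in the control list, the median of all regions in the windows. Katna1, next to Lats1, stood at 98.0 in the control and 97.3 in the db/db list, and Fance, next to Tead3, at 96.5 and 96.7. The promoter shared by Rpl10a and CT025652.2 near Tead3 stood at 69.3 and 78.4, that of Haus4 near Ajuba at 78.8 and 81.5, and that of Ccdc155 near Tead2 at 80.3 and 89.6. Near Lats1, Pcmt1 stood at 68.9 and 74.0 and Nup43 at 24.3 and 46.6, and Cd37 near Tead2 stood at 23.3 and 24.8. Of the 8 with a single partner, 0 changed in paired rank by 10 points or more. Over all promoter regions 7.43% rose and 12.7% fell that far, and 8 regions are too few to tell a difference. The median change of the 8 was -1.58 points, with 3 higher and 5 lower, from -9.88 (Cd37) to 6.91 (Nup43).

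The other control-only region of the windows was such a neighbour. It was the promoter of Tulp1, a photoreceptor gene, at chr17:28364956-28365555, 14.4 kb before Tead3, at percentile 37.0 of the control list. The rod marker genes, of whose control regions 32.7% had no db/db counterpart, moved the same way, and their part in this result was not tested. Together, 2 of the 57 control regions were found in that list only, or 3.51% (0.968% to 11.9%), against 4.16% of the whole list.

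Of the 79 db/db regions 24 had no control counterpart, or 30.4% (21.3% to 41.2%), against 31.3% of the whole list. Tead1 held 12 of them, Tead4 4, Yap1 and Wwtr1 3 each, Amotl2 1 and Ajuba 1, while Tead2, Tead3, Lats1 and Lats2 had 0. As a set they were weak, with percentiles from 0.341 to 58.2 and a median of 13.6, where the median of all db/db-only regions was 23.5. The 12 at Tead1 reached at most 25.5, while those at the other genes ran from 0.566 to 58.2. The 5 strongest lay at Tead4, Amotl2 and Wwtr1. A median without Tead1 was not computed, so the low median is not shown for the other genes. From percentile 0 to 20 of that list, 17 of 21 regions of the 10 genes had no control counterpart (81.0%, against 67.7% of all), between 20 and 40 it was 4 of 16 (25.0%, against 50.7%), and between 40 and 60 it was 3 of 19 (15.8%, against 27.7%). Above percentile 60 there were 0 of 23, against 5.27% of all, and no difference from that share was detectable in so few regions.

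**Figure D3:**
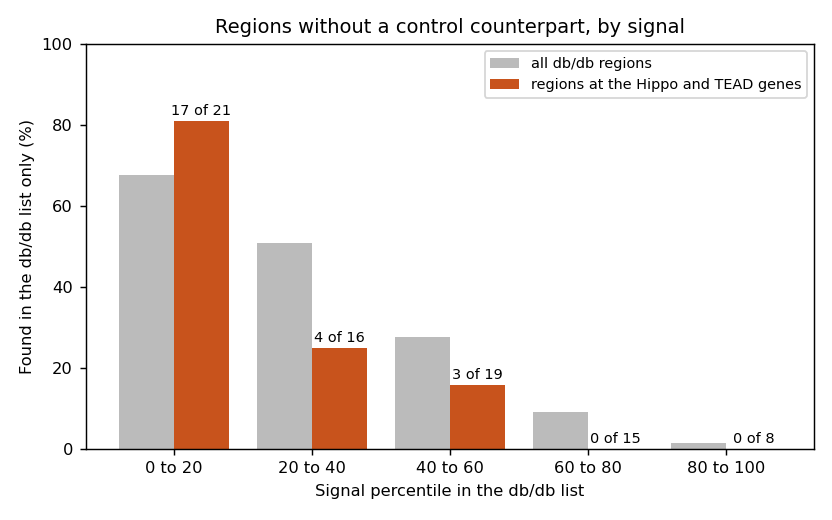
Share of db/db regions without a control counterpart, in %, by steps of 20 points of the signal percentile in the db/db list, for all regions (grey) and for regions at the Hippo and TEAD genes (orange, with counts). The share fell from 67.7% to 1.40% over all regions and from 17 of 21 to 0 of 8 at the Hippo and TEAD genes.

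Of the distal regions found in both lists, 33 had a single partner. Their percentile was higher in the db/db list by a median of 16.5 points, against 10.5 over all 28792 such distal regions. In paired rank the median change was 4.54 points (SD 10.7) against 0.83 (SD 11.3), and 23 of 33 were higher, against 55.0% of all. The change ranged from -18.1 to 31.4 points. A rise of at least 10 points was seen in 12 of 33, or 36.4% (22.2% to 53.4%), against 16.4% of all distal regions, and a fall in 2 of 33 against 12.9%.

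The 12 regions with a rise were spread over 6 genes: 3 of 5 in Lats2, 3 of 4 in Tead4, 3 of 13 in Tead1, 1 of 3 in Wwtr1, 1 of 2 in Tead3 and the 1 of Tead2. None was seen in Yap1 (2 regions), Amotl2 (2) or Ajuba (1). Both falls were single regions, in Lats2 and at Ajuba. Without Tead1, which supplied the most regions, the share with a rise was 45.0% (9 of 20). Of the 14 regions with a paired rank of 0 to 20 in the control list 6 had a rise, where 1038 of all 6613 such distal regions did. From 20 to 40 it was 3 of 6, against 1550 of 6831, and from 40 to 60 it was 3 of 8, against 1335 of 6387. Above a paired rank of 60 there were 0 of 5, against 8.82% of all distal regions there, again too few to tell a difference.

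The excess over the background depended on how the regions were ranked and how large a change was asked for. It was 27.3% (15.1% to 44.2%) against 16.4% when regions were ranked by −log10 p in place of the signal, and 24.1% (12.2% to 42.1%) against 17.2% when both lists were first reduced to equal numbers of regions. For a change of at least 15 points it was 12.1% (4.82% to 27.3%) against 8.18%. Under all 3 of these settings the interval included the background. Regions within 1 gene share their surroundings and are not independent, and with 1 list per genotype the spread between animals behind these shares is unknown.

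**Figure D4:**
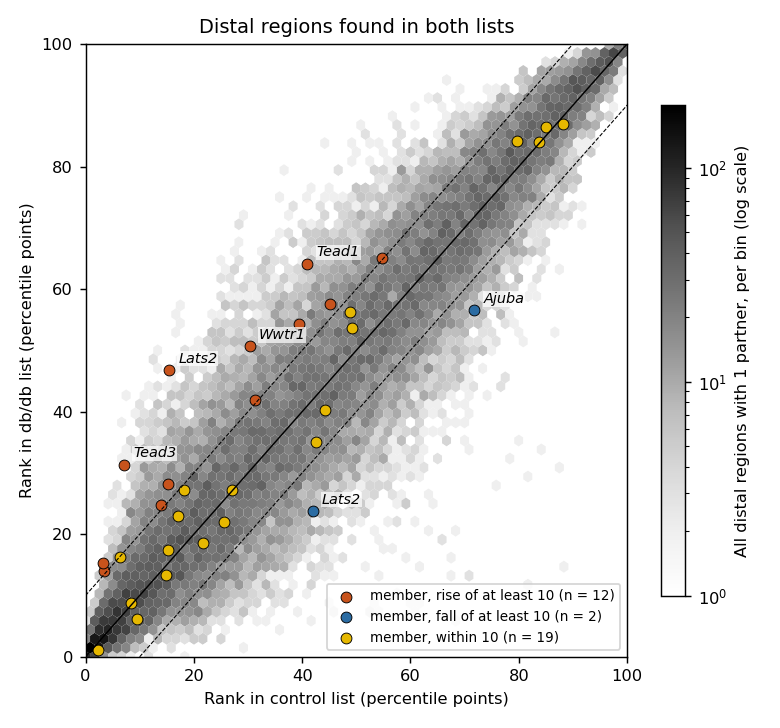
Paired rank of distal regions in the control list (x axis) and the db/db list (y axis), in percentile points among regions with a single partner, with all 28792 distal regions as grey bins and the 33 of the Hippo and TEAD genes as points. Dashed lines mark a change of 10 points, above which lie 12 points and below which lie 2, in Lats2 and at Ajuba.

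The other genes of the pathway were taken from 4 lists with 43 genes. Of these, 38 had an accessible promoter in both lists. Of their 206 control regions 11 were found in that list only, or 5.34% (3.01% to 9.31%), and of their 277 db/db regions 81, or 29.2% (24.2% to 34.9%). These shares were close to those of the 10 genes and to the 4.16% and 31.3% of the whole lists.

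Among 15 upstream kinases and adaptors, 14 had a promoter in both lists, and 6 of 80 control and 30 of 104 db/db regions were found in 1 list only. Wwc1, which encodes the scaffold KIBRA, had no promoter region in the control list and one at percentile 24.2 in the db/db list. Control-only regions lay at Stk4, an upstream kinase of the LATS kinases (percentile 20.9), at Wwc2 (8.28), at Map4k4 (8.34), at Frmd6 (48.3) and at Taok3 (69.9 and 58.9). The regions at Taok3 were the strongest control-only regions of the pathway. Among 14 junction and scaffold regulators, 13 had a promoter in both lists, with 4 of 77 control and 32 of 106 db/db regions in 1 list only. Fat4, a large cadherin, had no promoter region in either list. Those in the control list only included regions at Patj (20.7) and at Crb1 (25.0 and 30.3). Crb1 encodes an apical polarity protein of the retina, and its strongest promoter region stood at 85.0 in the control list and 60.6 in the db/db list.

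Among 4 further nuclear cofactors of the TEAD factors, 2 had a promoter in both lists, while Vgll1 and Vgll2 had no region in either. None of their 13 control regions and 6 of 19 db/db regions were found in 1 list only. Of 10 widely used target genes of YAP and TAZ 9 had a promoter in both lists, and 1 of 36 control regions, at Tgfb2 (percentile 2.17), and 13 of 48 db/db regions were found in 1 list only. Ankrd1 had no region in either list. The promoter of Ccn1, a matricellular protein and classical target, stood at 29.1 in the control and 39.1 in the db/db list, and that of Ccn2 at 38.4 and 56.1. Both target genes thus ranked low among promoters, as the genes of the coactivators and TEAD factors did. The TEAD letters were present in 11 of 37 promoters of these other pathway genes (29.7%), against 14.7% of all promoters and 8 of 12 of the Hippo and TEAD genes.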

How the data were processed

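ATAC-seq of Müller cells was analysed from 1 peak list per genotype. Lists of replicate 2, RNA-seq samples and reads were not analysed here. The columns deposited for a peak are its −log10 p and −log10 q values, its signal as a ratio (fold enrichment over background), and a score, all made by the authors. The submitters' processing notes give mm10. The study names csaw with loess normalisation and monaLisa for its own comparison, which was not repeated. The peak caller, its threshold, pooling of replicates and read depth are not given in the sources used here, so signals were compared only as ranks within a list, and how far depth sets the length of each list is unknown.

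Overlapping rows (81757 control, 109995 db/db) were merged, keeping the row with the highest signal, and regions overlapping by at least 1 bp were called shared. Genes, exons and starts came from GENCODE M21. Python 3.11.15 with numpy 2.4.6, pandas 2.3.3 and matplotlib 3.10.9 was used. Tested on simulated control and db/db lists of 26800 regions, the steps recovered 800 of 800 planted control-only and 6000 of 6000 planted db/db-only regions.

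The 10 genes and the gene lists were chosen with earlier results of these data known. Regions named with positions are every promoter region in both lists, the distal region of highest mean percentile per gene, control-only regions and the 5 strongest db/db-only regions. Other pathway genes are named where a list had no promoter region or a control-only region was found, with Ccn1 and Ccn2, except 1 gene that is not reported here. Paired ranks, counts of rank rises and values without Tead1 were added after seeing the data, and so were further regions named for their rank change. Alternatives were stricter q values, 50% overlap, equal numbers of regions, other windows and promoter distances, autosomes only, ranks by −log10 p or within class, and every row counted.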

Additional observations from a re-analysis of the deposited data

How the results depend on the processing

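Of 76 alternatives over all results, 64 were counted as the same as the value reported, 11 as moved and 1 as reversed. This count is coarse, and values counted as the same could still differ much. With windows of 50 kb the control list had 83 regions in place of 57. Paired ranks gave a median distal change of 4.54 in place of 16.5. Ranked by −log10 p, the median promoter change was 7.78 in place of 14.2. With every row counted in place of merged regions, the 10 genes had 118 control and 147 db/db rows, by construction. Without Tead1 the db/db list had 50 regions. Equal numbers of regions, reached by dropping the db/db regions of lowest −log10 p, moved most values. The control-only share became 14.0% and the db/db-only share 17.2%, and for the other pathway genes 12.6% and 11.8%. Shares over all regions under this setting are not given here. Those stated above are for the full lists and are no background for these values. The median percentile change of promoters became -0.00866, a reversed sign close to 0, and that of distal regions 4.20. Paired ranks gave 1.70 for promoters. Within gene bodies alone the control-only share was 0, since both such regions lay in the flanks. A rise of at least 15 points was seen in 12.1% of distal regions. The number of genes with a promoter region in both lists was 10 under each alternative tried for it. No paired analysis was possible because the comparison has a single list for each genotype and its results come from no test. Read depth was not analysed here, and weak regions missing from the shorter control list were not detected there, which does not show them to be closed.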
